A study of Mus musculus with 10 samples.

Results

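Abcg5, Slco1a4, Cyp39a1 and Mylip are 4 mouse genes of sterol and bile acid transport, uptake and conversion. Their levels were read in liver on Affymetrix MG_U74Bv2 arrays. They were chosen by gene symbol with their values in the 5 groups already known, because each had stood out in a comparison of transgenic mice. Each gene had 1 probe set with exactly that symbol, so the set is 4 of 7542 genes measured by probe sets with 1 symbol. Since the values in the transgenic groups served to choose the genes, those values are given as a description and carry no test. The values of the Scap study were also known at that point, and its arrays entered the calls in the transgenic mice through the shared estimate of the spread, though not through the differences. Its comparison is therefore given with its test, which is not independent of the choice in that respect.

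Liver handles cholesterol through uptake of lipoproteins, secretion into bile and conversion to bile acids. Abcg5 encodes one chain of the ABCG5/ABCG8 transporter, which pumps sterols from the hepatocyte into bile and is a known target of the oxysterol receptors LXR. Slco1a4 encodes OATP1A4, an organic anion transporter of the sinusoidal membrane that takes up bile salts, steroid conjugates and drugs. Cyp39a1 encodes the oxysterol 7α-hydroxylase that acts on 24-hydroxycholesterol, a side route into bile acids. Mylip encodes IDOL, a ubiquitin ligase that marks lipoprotein receptors for degradation and is itself induced by LXR. SREBP-1a and SREBP-2 are transcription factors that drive lipid and cholesterol synthesis, and SCAP escorts their precursors from the endoplasmic reticulum to the Golgi, where they are cleaved into the active nuclear form.

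In the transgenic study, male TgSREBP-1a mice and TgSREBP-2 mice, which overexpress the nuclear form of the human protein in liver, stood beside wild type male littermates. All 3 groups were 12 to 16 weeks old and spent 2 weeks on a diet high in protein and low in carbohydrate, which raises the transgenes and which the control mice ate too. These controls are called diet-fed wild type here, and the controls of the Scap study injected wild type. In the Scap study, male Scap-/- mice with MX1-Cre and wild type males, 10 to 12 weeks old and fed Teklad chow, both received 4 injections of polyinosinic-polycytidylic acid, and livers were taken 14 days after the last one. MX1-Cre is switched on by interferon and is not limited to hepatocytes, and the injected agent induces interferon in both groups. RNA of 5 livers was pooled in each group (20 µg), and each pool was hybridised to 2 arrays. The duplicates therefore share 1 pool, and every error and p-value here measures hybridisation, not the spread between mice. In whole liver, fewer cells of a type and less RNA per cell cannot be told apart.

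The values are log2 expression values, and the medians of the 10 arrays lay between 5.625 and 5.662. Duplicates correlated at 0.9871 to 0.9944, and the SD of their differences was 0.162 in diet-fed wild type, 0.172 in TgSREBP-1a, 0.221 in TgSREBP-2, 0.246 in injected wild type and 0.225 in Scap-/-. The brighter Scap probe set read 7.94 and 7.75 in Scap-/- and 9.24 and 8.89 in injected wild type, and whether it lies in the deleted part is not stated in the labels. Of 14 hepatocyte markers 2 were measured, and Apoa1 read between 12.86 and 13.39 on 9 arrays and 12.22 on the second TgSREBP-2 array. The other, the complement gene C8a, read 6.43 and 6.30 in TgSREBP-1a and 8.51 to 9.39 on the other 8 arrays. Hepatocyte markers summed on the linear scale to 10432 to 11326 in diet-fed wild type, 7504 to 8132 in TgSREBP-1a, 5217 to 10754 in TgSREBP-2, 10701 to 11402 in injected wild type and 9025 to 10335 in Scap-/-, and their part in the results was not tested. The second TgSREBP-2 array stands apart through Apoa1, which was read by 1 probe set with a name ending in f_at. For the 4 genes, the differences of TgSREBP-2 from wild type are therefore also given without that array.

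The sequences upstream of Abcg5, Slco1a4 and Mylip are shown, and Cyp39a1 is left out because it had no entry among the upstream sequences. The motifs searched are those bound by SREBPs or by their usual partner factors. The sequences come from RefSeq for build GRCm38.p6, whose table matched 3 of the 4 genes. Each is written 5′ to 3′ on the strand of its gene and ends just before the transcript start used by that table. For Abcg5 (chr17:84683012-84683120, minus strand) the 109 bases between its start and a start of Abcg8, its partner gene on the opposite strand, are shown. For Slco1a4 (chr6:141856221-141856470, minus strand) and Mylip (chr13:45389492-45389741, plus strand) the 250 bases before the start are shown. Capitals mark a match on either strand to a motif searched.
Abcg5: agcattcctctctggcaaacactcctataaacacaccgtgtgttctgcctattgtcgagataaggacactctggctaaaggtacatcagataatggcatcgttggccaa
Slco1a4: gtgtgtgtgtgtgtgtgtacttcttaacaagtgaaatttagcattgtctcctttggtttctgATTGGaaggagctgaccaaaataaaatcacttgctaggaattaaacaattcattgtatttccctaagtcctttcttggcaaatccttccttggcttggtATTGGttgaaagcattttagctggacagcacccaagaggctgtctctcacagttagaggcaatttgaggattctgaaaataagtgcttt
Mylip: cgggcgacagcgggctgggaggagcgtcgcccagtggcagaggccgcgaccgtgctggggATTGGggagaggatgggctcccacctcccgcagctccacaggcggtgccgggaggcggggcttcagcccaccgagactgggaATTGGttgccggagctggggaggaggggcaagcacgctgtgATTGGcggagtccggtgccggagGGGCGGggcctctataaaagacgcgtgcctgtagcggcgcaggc

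Over the 250 bases before the start, the core of a sterol regulatory element (TCACNCCAC) matched none of the 3 genes, and 1.05% of 32851 such windows hold it. The E box CACGTG, which SREBPs also bind, matched none of them either, against 6.02% of windows. The CCAAT box, the site of the SREBP partner NF-Y, matched 2 times for Slco1a4 and 3 times for Mylip, all on the reverse strand, and 0 times for Abcg5, against 33.8% of windows with a match. The GC box GGGCGG, a site of Sp1, matched once, for Mylip, 44 bases before the start, against 32.7% of windows. The 3 regions also differed in base composition, with 71.2% G and C for Mylip, 52.4% for Abcg5 and 39.2% for Slco1a4 over 250 bases, beside a median of 52.4% for all windows. A match is a description of letters and not a binding site.

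Abcg5, the sterol exporter, was the brightest of the 4 genes, with a mean at the 99.0th percentile of probe sets. Its duplicates gave 8.66 and 8.53 in diet-fed wild type, 10.07 and 9.79 in TgSREBP-1a, then 10.33 and 10.07 in TgSREBP-2. Both transgenic pools thus lay above diet-fed wild type on every array, and they overlapped with each other. Of all probe sets, 42.4% in TgSREBP-1a and 40% in TgSREBP-2 had no overlap with diet-fed wild type, in either direction. The difference from wild type was 1.34 ± 0.15 (limma SE, log2; 2.52-fold, n = 2 arrays a group) in TgSREBP-1a and 1.61 ± 0.15 (3.05-fold) in TgSREBP-2. Ordered from the highest difference downward, it held rank 53 of 12411 probe sets in TgSREBP-1a and rank 13 in TgSREBP-2; the value there without the second TgSREBP-2 array was 1.74. These comparisons share their wild type arrays, so the likeness of the 2 values is no separate result. Without each array in turn the differences were 1.19 to 1.48 in TgSREBP-1a and 1.48 to 1.74 in TgSREBP-2.

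In the Scap study Abcg5 read 9.08 and 8.88 in wild type and 8.54 and 8.21 in Scap-/-. The groups did not overlap, and the Scap-/- pool was the lowest of the 5. The change of -0.60 ± 0.15 (1.52-fold lower) did not pass the test (limma, adjusted p = 0.279). In order of level TgSREBP-2 was followed by TgSREBP-1a, injected wild type, diet-fed wild type and Scap-/-. The first pair of neighbours and the last pair overlapped between arrays.

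**Figure D1:**
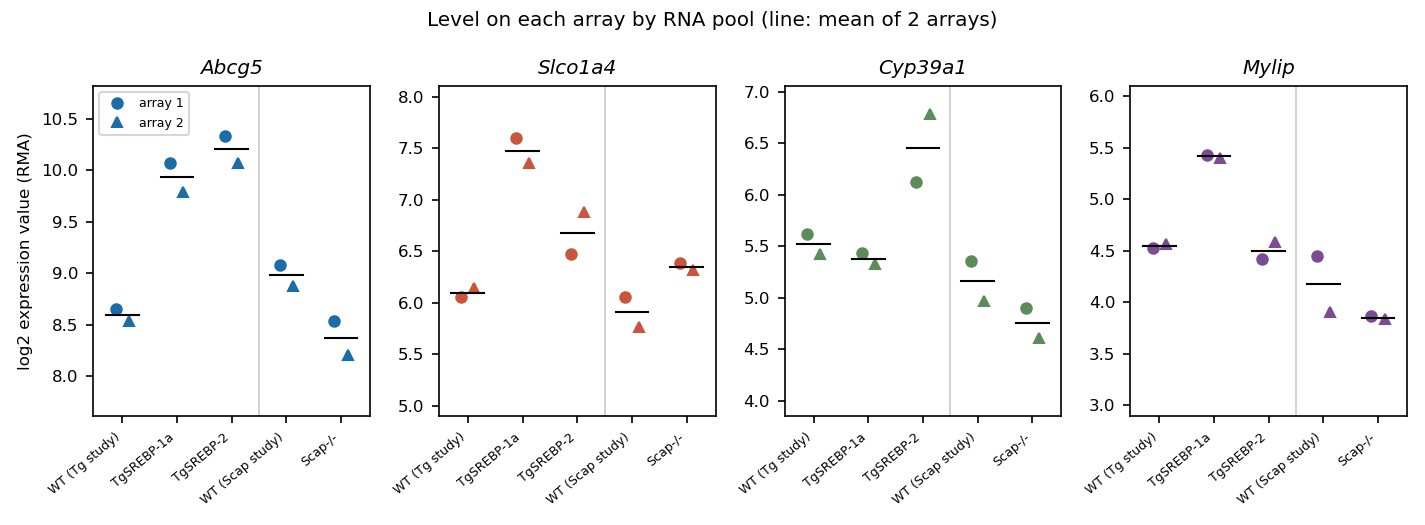
Log2 expression value (vertical axis, RMA) of each gene on each array, by RNA pool (horizontal axis); circles are first and triangles second hybridisations, lines are means of 2 arrays, and each panel spans the same number of log2 units. Abcg5 is high in both transgenic pools, Slco1a4 and Mylip are highest in TgSREBP-1a, and Cyp39a1 is highest in TgSREBP-2, where its arrays read 6.12 and 6.79.

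Slco1a4, the bile salt and organic anion importer, had a mean at the 69.6th percentile. Diet-fed wild type gave 6.05 and 6.14, TgSREBP-1a gave 7.60 and 7.35, and TgSREBP-2 gave 6.47 and 6.88. TgSREBP-1a was highest, TgSREBP-2 lay between it and wild type, and no 2 of these 3 pools overlapped. Such separation was common. It was seen for 42.4% of all probe sets between TgSREBP-1a and wild type, 40% between TgSREBP-2 and wild type and 46.1% between the lines. The difference from wild type was 1.38 ± 0.15 (2.6-fold) in TgSREBP-1a and 0.58 ± 0.15 (1.49-fold) in TgSREBP-2, and TgSREBP-1a exceeded TgSREBP-2 by 0.80 ± 0.15. The value in TgSREBP-2 rests on its second array: it was 0.38 without that array and 0.78 without the first. Between the lines the difference was 1.002 without the second TgSREBP-2 array and 0.59 without the first.

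Slco1a4 was also the 1 gene of the 4 that stood higher in Scap-/- than in its wild type. It read 6.05 and 5.76 in wild type and 6.38 and 6.32 in Scap-/-. The arrays did not overlap, and the change of 0.44 ± 0.15 (1.36-fold) did not pass the test (limma, adjusted p = 0.567). Its level thus lay above the matching wild type pool in all 3 altered livers, in the direction opposite to that of Abcg5 in the Scap study. The wild type pools overlapped with each other and were the lowest of the 5.

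Mylip, the ligase that acts on lipoprotein receptors, was dim, with a mean at the 25.6th percentile. The arrays of diet-fed wild type gave 4.53 and 4.57, those of TgSREBP-1a 5.43 and 5.40, and those of TgSREBP-2 4.42 and 4.58. TgSREBP-1a stood alone, and TgSREBP-2 overlapped with wild type. Of all probe sets, 42.4% had no overlap between TgSREBP-1a and wild type, and 46.1% none between the lines. The difference from wild type was 0.87 ± 0.15 (1.83-fold) in TgSREBP-1a and -0.05 ± 0.15 in TgSREBP-2 (-0.13 without its second array). TgSREBP-1a exceeded TgSREBP-2 by 0.91 ± 0.15. The difference of TgSREBP-1a from wild type was 0.85 to 0.89 without each array in turn.

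In the Scap study Mylip read 4.45 and 3.90 in wild type and 3.87 and 3.84 in Scap-/-. The Scap-/- arrays lay below both wild type arrays, by as little as 0.03. The change was -0.32 ± 0.15 (limma, adjusted p = 0.652), and it was -0.60 without the second wild type array and -0.05 without the first.

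Cyp39a1, the oxysterol hydroxylase, had a mean at the 45.7th percentile and the widest duplicates of the 4, with a residual SD of 0.269, above that of 95.5% of probe sets. Diet-fed wild type gave 5.62 and 5.42, its neighbour TgSREBP-1a 5.43 and 5.33, and TgSREBP-2 6.12 and 6.79. TgSREBP-2 stood above the other pools, and TgSREBP-1a overlapped with wild type. Of all probe sets, 40% had no overlap between TgSREBP-2 and wild type, and 46.1% none between the lines. The difference from wild type was 0.93 ± 0.21 (1.91-fold) in TgSREBP-2 and -0.14 ± 0.21 in TgSREBP-1a. TgSREBP-1a lay below TgSREBP-2 by 1.07 ± 0.21 (2.10-fold). The TgSREBP-2 value was 0.60 without its second array and 1.27 without its first. The difference between the lines was -0.74 and -1.41 in the same fits.

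In the Scap study Cyp39a1 read 5.35 and 4.97 in wild type and 4.90 and 4.61 in Scap-/-. The groups were 0.07 apart, and the change of -0.41 ± 0.21 (1.32-fold lower) did not pass the test (limma, adjusted p = 0.667). It was -0.21 without the first array of injected wild type and -0.60 without the second, and -0.26 without the second Scap-/- array. Scap-/- again had the lowest level of the 5 pools.

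**Figure D2:**
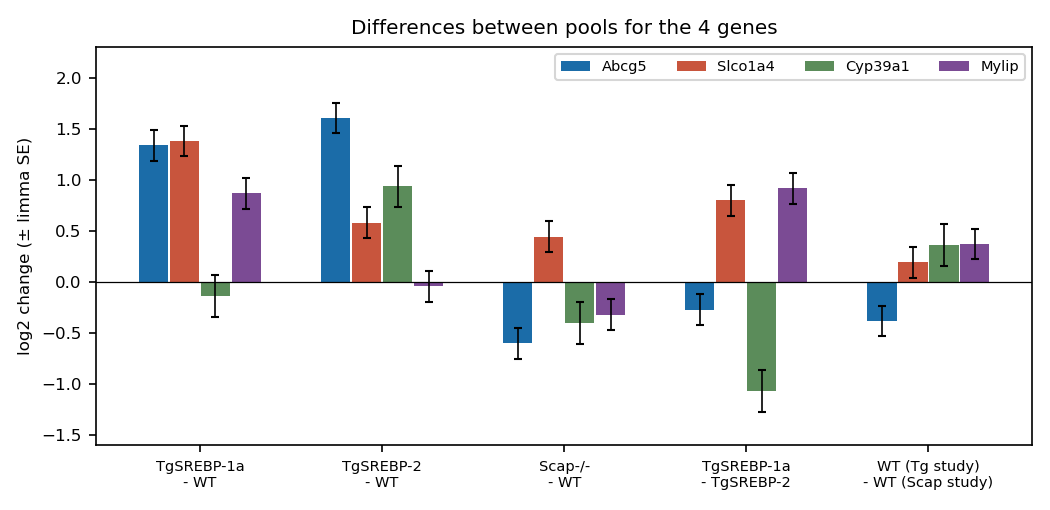
Log2 change (vertical axis) of the 4 genes in each comparison (horizontal axis, first group minus second); bars are differences of group means and error bars limma standard errors, with 2 arrays a group. Abcg5 is raised in both lines, Slco1a4 and Mylip differ between the lines in the opposite direction to Cyp39a1, and in the Scap study the 4 bars lie between -0.60 and 0.44.

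Counted together, 3 of the 4 genes were called in TgSREBP-1a (limma, adjusted p under 0.05 and at least 1.5-fold), where 2.18% of 12411 probe sets were called (1.36% higher and 0.814% lower). In TgSREBP-2 1 of 4 (Abcg5) was called, against 0.5% of probe sets (0.338% higher and 0.161% lower). Between the lines 3 of 4 were called, against 1.86% (1.18% higher and 0.677% lower in TgSREBP-1a). These counts follow from how the genes were chosen and are no test. The call of Mylip in TgSREBP-1a was lost without any 1 array, and the calls between the lines were lost without most single arrays. Such fits have fewer residual degrees of freedom. In Scap-/- 0 of 4 were called by limma, against 0.274% of probe sets (0.0161% higher and 0.258% lower). There 2 of 4 (Abcg5 and Slco1a4) had an unadjusted limma p under 0.05, beside 960 of 12411 probe sets. All 4 genes had no overlap between Scap-/- and wild type arrays, a separation that 34.4% of all probe sets showed. Their median change in Scap-/- was -0.36, beside 0.02 for all probe sets. Diet, age and injections all differ between the wild type pools. There 0 of 4 were called by limma, against 0.508% of probe sets, and the differences (transgenic study minus Scap study) were -0.38 ± 0.15 for Abcg5, 0.19 ± 0.15 for Slco1a4, 0.36 ± 0.21 for Cyp39a1 and 0.37 ± 0.15 for Mylip. At an unadjusted limma p under 0.05 there were 2, beside 1204 of 12411 probe sets. The arrays of diet-fed wild type also served to choose the genes, so these counts are a description and no test. Without the second array of injected wild type the differences were 0.04 for Slco1a4, 0.17 for Cyp39a1 and 0.10 for Mylip, and without the first they were 0.33, 0.55 and 0.64.

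Some markers of other liver cells moved in the same pools, and their part in the results was not tested. Kupffer cell markers (2 of 11 measured) summed to 64 to 69 in TgSREBP-1a on the linear scale, against 40 to 41 in diet-fed wild type. They summed to 33 to 41 in the other 3 pools, in which Slco1a4 and Mylip were also lower. Of these 2 markers, Cd163 lay 0.91 (log2) above wild type in TgSREBP-1a, but Timd4 only 0.07. Endothelial markers (5 of 12) summed to 844 to 905 in TgSREBP-1a, 731 to 780 in diet-fed wild type, 684 to 689 in TgSREBP-2, 798 to 820 in injected wild type and 732 to 801 in Scap-/-. In TgSREBP-1a Lyve1 and Ptprb lay 0.64 and 0.50 above wild type, Eng 0.22, Stab2 0.10 and Stab1 0.01. Pancreatic acinar genes (3 of 15), which liver should lack, summed to 3217 to 4228 in TgSREBP-2, the pool where Cyp39a1 was highest, against 1970 to 2642 in wild type and 227 to 228 in TgSREBP-1a. In the Scap study they summed to 912 to 1114 in wild type and 260 to 269 in Scap-/-. Cpb1, Cela3b and Ctrc differed from wild type by -4.67, -3.84 and -0.22 in TgSREBP-1a and by 0.63, 0.63 and 1.51 in TgSREBP-2. In Scap-/- they differed by -3.21, -1.89 and -0.13. Markers of bile duct cells (2 of 11) summed to 63 to 87 and those of stellate cells (2 of 10) to 51 to 75 over all pools. Those of T and B cells (2 of 9) summed to 21 to 31. The 1 erythroid marker of 6 measured, the transferrin receptor gene Tfrc, which also serves iron uptake in liver, read 71 to 88 in TgSREBP-2 and 24 to 45 in the other pools. RMA gives no value of 0, so no marker is at 0.

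Other genes were taken from 6 lists with 181 genes, of which 54 had a probe set of their own. Besides sterol and bile acid handling, the lists cover targets of the xenobiotic receptors and E2 enzymes and relatives of the Mylip ligase. The called gene Frmd4b is listed as such a relative. Of these 54 genes 2 rose and 3 fell in TgSREBP-1a (9.26% called, against 2.18% of all probe sets). In TgSREBP-2 1 rose (1.85%, against 0.5%), and in Scap-/- 1 fell (1.85%, against 0.274%). The lists were chosen with earlier results of these data known, and each gene is taken by its brightest probe set. These shares are therefore a description and no test of the lists. Abcg8, Cyp7a1, Cyp7b1, Cyp8b1, Slc10a1 and the receptor genes Nr1h3, Nr1h4, Nr1i2 and Nr1i3 had no probe set with 1 symbol and were not analysed here. The median changes of the 54 genes were -0.01 in TgSREBP-1a, -0.03 in TgSREBP-2 and -0.13 in Scap-/-, beside -0.02, -0.02 and 0.02 for all probe sets. In the same 3 comparisons 17, 9 and 9 of the 54 had an unadjusted limma p under 0.05. Of all 12411 probe sets 1279, 983 and 960 did, the background for the unadjusted counts of each list below.

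Among 18 measured genes of sterol uptake, efflux and carriage, beside Abcg5 and Mylip, Stard4 moved in all 3 altered livers. An unadjusted limma p under 0.05 was found for 4 of them in TgSREBP-1a, 3 in TgSREBP-2 and 2 in Scap-/-. Stard4, a carrier of cholesterol between membranes, rose by 1.68 ± 0.20 in TgSREBP-1a (limma, adjusted p = 0.000987) and by 2.14 ± 0.20 in TgSREBP-2 (adjusted p = 0.000838), and fell by 1.77 ± 0.20 in Scap-/- (adjusted p = 0.00468). Without the second Scap-/- array that fall was 1.62 (limma, adjusted p = 0.0866), and its other probe set changed by 1.44, 1.58 and -1.43. Scarb2, a lysosomal membrane protein that also passes cholesterol, fell by 0.75 ± 0.14 in TgSREBP-1a (limma, adjusted p = 0.015), a call kept only without the second wild type array, and the value was -0.56 without the first. Vldlr, a further target of the ligase encoded by Mylip, read 4.94 to 5.34 on all arrays, with changes of -0.04, 0.06 and 0.12, and its dimmer probe set changed by 0.33, 0.04 and 0.03. The exporter gene Abcg1, another target of LXR, changed by 0.00 in TgSREBP-1a, 0.16 in TgSREBP-2 and 0.00 in Scap-/-, and none of these passed the test. Abcg1 was picked after its values were seen, and the part of LXR in the results was not tested.

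Of 12 further measured transporters of bile acids and organic anions, 0 were called by limma in any of these 3 comparisons, with 4, 1 and 4 at an unadjusted p under 0.05. Abcb11, the bile salt export pump, changed by -0.36 ± 0.15, -0.58 ± 0.15 and -0.56 ± 0.15 in TgSREBP-1a, TgSREBP-2 and Scap-/-, and its other probe set by -0.46, -0.68 and -0.84. Slco1b2, an uptake transporter of the same membrane as OATP1A4, changed by -0.74 ± 0.18, -0.13 ± 0.18 and -0.47 ± 0.18. Its only probe set was dim (mean 4.27), and its name ends in r_at, a mark of fewer or less specific probes. Slco1a6, a close relative of Slco1a4, was dim with 3.11 to 3.53 throughout, and changed by -0.05, -0.13 and 0.08. Abcc4, an exporter of bile acid conjugates on the sinusoidal side, changed by 0.60 ± 0.16 in TgSREBP-1a (limma, adjusted p = 0.104), -0.07 in TgSREBP-2 and 0.07 in Scap-/-. None of these 4 genes passed the test in these comparisons.

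Of 5 measured genes of bile acid synthesis beside Cyp39a1, 1 fell in TgSREBP-1a, 0 were called in TgSREBP-2 and 0 in Scap-/- by limma. In the same order, 3, 2 and 1 had an unadjusted limma p under 0.05. The one that fell was Acnat1, a gene of peroxisomal acyl transfer, by 1.38 ± 0.26 (limma, adjusted p = 0.0176), and its call was lost without any 1 of the 4 arrays, with changes of -1.56 to -1.21. Cyp27a1, the sterol 27-hydroxylase, changed by -0.32 ± 0.18 in TgSREBP-1a, -0.42 ± 0.18 in TgSREBP-2 and -0.68 ± 0.18 in Scap-/- on its bright probe set, while the dim one changed by 0.31, 0.11 and 0.16. Akr1d1, the 5β-reductase, changed by 0.96 ± 0.26, 0.46 ± 0.26 and -0.58 ± 0.26, on a dim probe set (mean 4.58) whose name ends in i_at. Neither passed the test in any of the 3 comparisons.

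Of 8 measured receptor and regulator genes, 1 fell in TgSREBP-1a and 0 were called by limma in TgSREBP-2 and Scap-/-. In the same order, 3, 1 and 0 had an unadjusted limma p under 0.05. Ppara, the receptor that controls fatty acid oxidation, fell by 1.15 ± 0.19 (limma, adjusted p = 0.00866). That call was kept only without the second wild type array, and the change was -0.91 without the first. Of 4 measured targets of the xenobiotic receptors, which also control Slco1a4, 0 were called by limma in these 3 comparisons, with 3, 1 and 1 at an unadjusted p under 0.05. The carboxylesterase Ces2a differed between the wild type pools by -1.57 ± 0.21 (limma, adjusted p = 0.00934), and by -1.38 without the first array of injected wild type, where the call was lost, as it was without the second array of diet-fed wild type, at -1.39.

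Of 8 measured E2 enzymes and relatives of the Mylip ligase, 1 rose in TgSREBP-1a and 0 were called by limma in TgSREBP-2 and Scap-/-, with 1 in each at an unadjusted p under 0.05. Frmd4b, which shares a FERM domain with Mylip, gave 6.66 and 6.32 in diet-fed wild type, 8.83 and 8.19 in TgSREBP-1a, then 7.16 and 7.03 in TgSREBP-2. It rose by 2.02 ± 0.25 in TgSREBP-1a (limma, adjusted p = 0.00124), also without each array in turn, and it exceeded TgSREBP-2 by 1.41 ± 0.25 (adjusted p = 0.015). The call between the lines was kept in 1 of 4 fits that left out an array, with differences of 1.09 to 1.73. Ube2d3, an E2 enzyme of the family that serves Mylip, changed by 0.04, -0.11 and -0.43, and none of these passed the test.

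**Figure D3:**
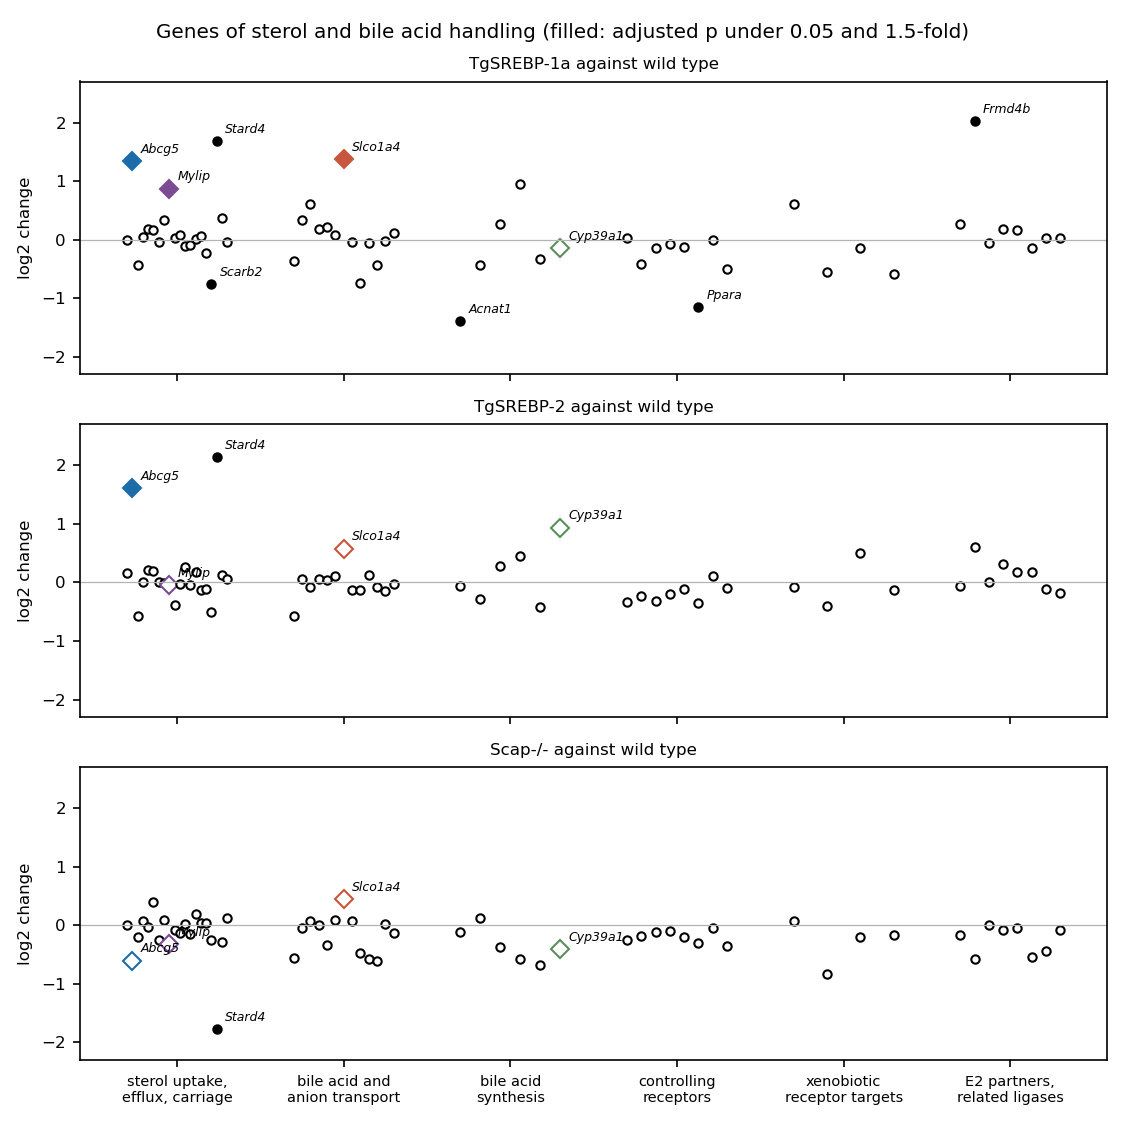
Log2 change (vertical axis) of each measured gene of 6 lists (horizontal axis) in the 3 comparisons with wild type; diamonds are the 4 chosen genes, circles the other genes, and filled symbols have an adjusted p under 0.05 and at least 1.5-fold. Most genes lie near 0, with Stard4 at 1.68, 2.14 and -1.77 and Frmd4b at 2.02 in TgSREBP-1a.

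To place each gene among all others, the 3 genes with the most similar pattern of 5 group means were listed, each pattern centred on its own mean and compared by the root mean square difference in log2. They were picked for this likeness, so their values are a description. Closest to Abcg5 were Lss (difference 0.18), the cyclase that makes lanosterol, Pank3 (0.20), a kinase of coenzyme A synthesis, and Mpv17l (0.24). Lss read 1.61 higher in TgSREBP-1a, 1.44 higher in TgSREBP-2 and changed by -0.59 in Scap-/-, close to the values of Abcg5. Pank3 differed by 1.03, 0.99 and -0.76 on that probe set, by 0.76, 0.57 and -0.16 on its brightest and by -0.03, 0.00 and 0.42 on the third.

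Closest to Slco1a4 were Ppp2r5b (0.19), a regulatory subunit of protein phosphatase 2A, Als2cl (0.20) and Emp2 (0.20). All 3 stood high in TgSREBP-1a, at 1.17, 1.01 and 0.87 above wild type, and 0.13 to 0.23 above it in TgSREBP-2. In Scap-/- they differed by 0.09, 0.01 and 0.22, less than the 0.44 of Slco1a4. Ppp2r5b had a second probe set, at 1.505 and 0.17 in the transgenic lines, and that of Emp2 read 0.40 and 0.02.

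Closest to Mylip were Depp1 (0.09), Cpne3 (0.10), a calcium-dependent membrane binding protein, and Rmnd5a (0.12), a subunit of a ubiquitin ligase complex. They stood above wild type by 0.92, 0.86 and 0.82 in TgSREBP-1a and differed by -0.16, -0.15 and -0.06 in TgSREBP-2. In Scap-/- they differed by -0.15, -0.28 and -0.36. Rmnd5a had 2 other probe sets, at 0.56 and 0.44 in TgSREBP-1a.

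Closest to Cyp39a1 were Trafd1 (0.22), Pcmt1 (0.23) and Rpp25l (0.24), on probe sets whose names end in i_at or r_at, marks of probe sets with fewer or less specific probes. They stood 0.80, 0.58 and 0.60 above wild type in TgSREBP-2 and differed by -0.24, -0.16 and -0.06 in TgSREBP-1a. In Scap-/- none of them shared the lower level of Cyp39a1, with differences of -0.01, 0.02 and 0.06. Trafd1 read 5.39 and 4.13 and Pcmt1 6.97 and 6.09 on the TgSREBP-2 arrays, so their first array was the higher one, where Cyp39a1 had its higher value on the second. The other probe set of Pcmt1 read -0.09 in TgSREBP-2. With the largest absolute difference as the measure the acinar gene Ctrc took the first place, and the lists of the other 3 genes kept their 3 members.

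**Figure D4:**
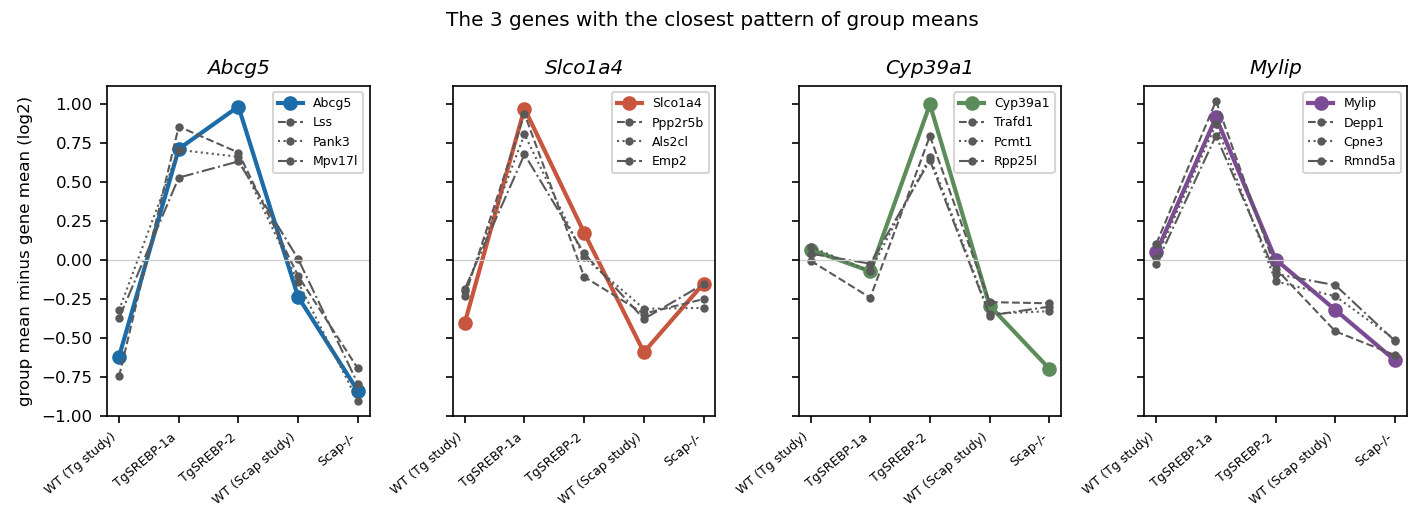
Group means minus the gene's own mean over groups (vertical axis, log2) for the 5 pools (horizontal axis), for each of the 4 genes (coloured) and the 3 genes with the smallest root mean square difference (grey). The neighbours of Abcg5 and Mylip follow them in all pools, and those of Cyp39a1 share its peak in TgSREBP-2 but not its low level in Scap-/-.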

How the data were processed

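Liver RNA pools were measured on 10 MG_U74Bv2 arrays, 2 hybridisations for each of 5 groups. The deposited values are log2 expression values, made with RMA (no version given) per the submitters' processing notes, while the series' design text names Affymetrix Microarray Suite. RMA corrects background, equalises arrays and summarises probes, which compresses fold changes of dim genes. The file holds no detection calls. Of 12477 probe sets, 66 controls were left out and 12411 tested. Symbols came from the platform annotation (10581 probe sets with 1 symbol, 178 with several, 1652 with none), and RefSeq GRCm38.p6 updated 0 of them. limma 3.58.1 in R 4.3.3 was fitted to all 10 arrays with 1 coefficient per group and 5 residual degrees of freedom, with Benjamini-Hochberg adjustment over all tested probe sets (two-sided). Calls required a 1.5-fold change or more besides an adjusted p under 0.05. Precision is limited by having 2 arrays a group, with a median standard error of 0.115 for log2 changes.

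The 4 genes and the gene and marker lists were chosen with earlier results of these data known. Each listed gene was taken by its brightest probe set. Named were every called gene of the lists, a fixed set of well known sterol and bile acid genes where measured, others as examples after their values were seen (Abcg1, Slco1a6, Abcc4, Akr1d1, Ube2d3), and the 3 genes most like each of the 4. The fit was tested on simulated arrays. Alternatives were each array left out, the hybridisation number as a block, a fit of 4 arrays, a filter on dim probe sets (under the 25th percentile), 2 other normalizations, a variance trend and no fold minimum.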

Additional observations from a re-analysis of the deposited data

How the results depend on the processing

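Counts of called probe sets depended on single arrays: leaving out each in turn gave 142 to 193 for TgSREBP-1a (270 with all), 25 to 124 for TgSREBP-2 (62), 10 to 68 for Scap-/- (34), 87 to 384 between the lines (231) and 14 to 120 between the wild type pools (63). A replicate block on hybridisation number gave counts of 101 for TgSREBP-2, 91 for Scap-/- and 145 between the wild type pools, and with only the 4 arrays compared 5 for Scap-/- and 13 between the wild type pools. Differences between duplicates correlated across probe sets at 0.598 in the Scap study, 0.411 for TgSREBP-1a and 0.057 for TgSREBP-2 with their wild type, but the labels tie the numbers to no batch. Abcg5 was higher on the first hybridisation in 5 of 5 groups, and 15.2% of probe sets kept 1 sign in all 5. With the block its change of -0.60 in Scap-/- had a limma adjusted p of 0.0107, while the other 3 genes did not pass. In fits with no block its adjusted p was 0.113 to 1 without each array (limma). Both other normalizations, the dim filter, the variance trend and the fold minimum kept every count within 1.5 times. The called list genes were 2 instead of 1 in TgSREBP-2 with probe sets averaged. For Mylip and Cyp39a1, whose signals lie in the lower part of the array, a small change could be missed.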
